A study of Homo sapiens with 8 samples.

Results

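The genes described here are 9 genes of antigen presentation by the major histocompatibility complex (MHC), followed in 8 RNA-seq libraries of multiple myeloma cells. They were chosen by symbol, with earlier results of these data known, and they are 9 of the 58219 genes listed for each library and 9 of the 13129 protein-coding genes that had enough counts to be tested. Of these, 6 belong to the class I pathway (HLA-B, HLA-C, HLA-E, B2M, TAP1 and NLRC5) and the others to class II (CIITA, HLA-DRA and CD74). H929 (NCI-H929) and KMS11 are established human myeloma cell lines that carry the t(4;14) translocation. Cells of each line were kept for 24 h with ethanol, the solvent, or with 2 µM fluvastatin, a statin that inhibits HMG-CoA reductase in the mevalonate pathway, and each of the 4 groups has 2 biological replicates. The time was chosen by the study to fall before cell death at this dose, and the study asked which genes fluvastatin perturbs in t(4;14)-positive cells. Each line comes from a single patient's tumour and was grown alone in culture, so that a difference between the lines is a difference between these 2 lines and not between classes of patient.

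MHC class I molecules are heavy chains such as HLA-B, HLA-C and HLA-E paired with beta-2-microglobulin (B2M), and they show peptides from inside the cell to CD8+ T cells and natural killer cells. TAP1 is a subunit of the transporter that brings those peptides into the endoplasmic reticulum, and NLRC5 is the coactivator that drives class I promoters. MHC class II molecules, of which HLA-DRA is the hardly polymorphic alpha chain of HLA-DR, show peptides from endosomes to CD4+ T cells with the help of the invariant chain CD74, and their expression depends on the coactivator CIITA, which is normally switched off when B cells become plasma cells.

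Expected counts are reads per gene as RSEM estimates them, and their total per library ranged from 26702515 to 41910446, and 85.18% to 91.35% of them fell on protein-coding genes. Within KMS11, fluvastatin replicate 1 stood apart with 30721780 counts and 88.06% on protein-coding genes, against 90.85% to 91.35% in the other 3 KMS11 libraries. The plasma cell identity of the lines was checked on 7 marker genes. All of them reached 10 counts in each H929 library, with a summed level of 7684 to 7929 CPM, the counts scaled to TMM-adjusted library size, in ethanol and 6307 to 6504 CPM in fluvastatin. In KMS11 the sum was 2437 to 2692 CPM in ethanol and 2134 to 2209 CPM in fluvastatin, and CD38, a defining plasma cell marker, was nearly absent, at 4 to 11 counts. In a bulk library, fewer cells of a type and less RNA per cell cannot be told apart.

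The promoters were searched for short motifs that are known binding letters of factors acting on MHC genes, and not every gene printed here has each motif. The 250 bases before the RefSeq start site (GRCh38.p14, written 5′ to 3′ on the strand of the gene) are printed for the 5 of the 9 genes that have an entry. They are shown as a description, and a link between the motifs and the response to fluvastatin was not tested. HLA-E, NLRC5, CIITA and HLA-DRA are named only. Capitals mark matches on either strand to CCAAT (the NF-Y box, which reads ATTGG on the other strand), TGACG (the core of the CREB/ATF site in the X2 box), GAAA followed by any 2 bases and GAAA again (the core of the interferon-stimulated element read by IRF factors) and the NF-κB consensus.
B2M, chr15:44711267-44711516, plus strand: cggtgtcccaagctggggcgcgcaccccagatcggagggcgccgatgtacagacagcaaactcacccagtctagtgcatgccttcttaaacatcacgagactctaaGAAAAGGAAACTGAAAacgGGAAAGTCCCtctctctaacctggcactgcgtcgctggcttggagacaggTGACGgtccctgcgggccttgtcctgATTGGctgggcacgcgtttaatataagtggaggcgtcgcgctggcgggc
TAP1, chr6:32853705-32853954, minus strand: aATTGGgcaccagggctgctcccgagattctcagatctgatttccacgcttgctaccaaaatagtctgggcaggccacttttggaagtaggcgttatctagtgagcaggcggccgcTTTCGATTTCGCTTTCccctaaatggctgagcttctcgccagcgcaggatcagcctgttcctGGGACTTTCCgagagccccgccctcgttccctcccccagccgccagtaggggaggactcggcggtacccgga
HLA-B, chr6:31357180-31357429, minus strand: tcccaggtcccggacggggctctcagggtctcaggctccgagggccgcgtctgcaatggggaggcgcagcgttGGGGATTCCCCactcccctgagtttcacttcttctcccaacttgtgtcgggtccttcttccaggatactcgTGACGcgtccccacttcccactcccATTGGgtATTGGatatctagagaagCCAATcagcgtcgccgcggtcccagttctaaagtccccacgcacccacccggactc
HLA-C, chr6:31272093-31272342, minus strand: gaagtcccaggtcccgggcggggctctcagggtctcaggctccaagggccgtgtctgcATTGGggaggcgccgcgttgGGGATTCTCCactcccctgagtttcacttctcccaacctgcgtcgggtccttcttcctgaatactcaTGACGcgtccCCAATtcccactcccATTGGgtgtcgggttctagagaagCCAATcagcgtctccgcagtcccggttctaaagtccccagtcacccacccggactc
CD74, chr5:150412911-150413160, minus strand: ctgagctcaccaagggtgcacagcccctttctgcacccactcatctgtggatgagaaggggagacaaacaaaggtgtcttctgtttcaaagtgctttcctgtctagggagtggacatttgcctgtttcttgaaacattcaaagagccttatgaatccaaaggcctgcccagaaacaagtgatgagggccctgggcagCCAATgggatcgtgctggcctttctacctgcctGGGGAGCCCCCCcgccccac

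Exact matches to the GAAA pattern were found in B2M and TAP1, each with 2 that overlap. They lie at −144 to −129 in B2M and at −134 to −119 in TAP1, counted back from −1 at the base before the start. That exact pattern is in 3.0% of the 35116 promoter entries of the same length. Looser forms of the interferon-stimulated element were not searched, so the other windows may hold one. HLA-B and HLA-C are alike in this window, with TGACG at −106 to −102 and at −105 to −101, the same CCAAT at −56 to −52, and an NF-κB match further out. TGACG is in 21.2% of all entries, CCAAT in 32.0% and the NF-κB consensus in 10.0%. The NF-κB matches in HLA-B and CD74 overlap one another. In CD74 the CCAAT at −53 to −49 was followed by NF-κB matches close to the start. TAP1 has another RefSeq entry downstream, which held none of these motifs. The matches describe letters and not bound sites.

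Without the drug, KMS11 had more of B2M, HLA-B, TAP1, NLRC5, CIITA, HLA-DRA and CD74 transcript, and H929 had more HLA-C and HLA-E on the CPM scale. In the edgeR quasi-likelihood test with Benjamini-Hochberg adjustment over all tested genes, the 6 class I genes passed an adjusted p of 0.05, 4 higher and 2 lower in KMS11, where 72.0% of all tested genes passed (35.6% higher and 36.4% lower). Their values also separated the lines without overlap, which held for 88.2% of all tested genes. The class II genes HLA-DRA and CD74 were tested only because KMS11 is high, and CIITA is near the limit of detection in H929. The levels of these class II genes are therefore given as a description.

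**Figure D1:**
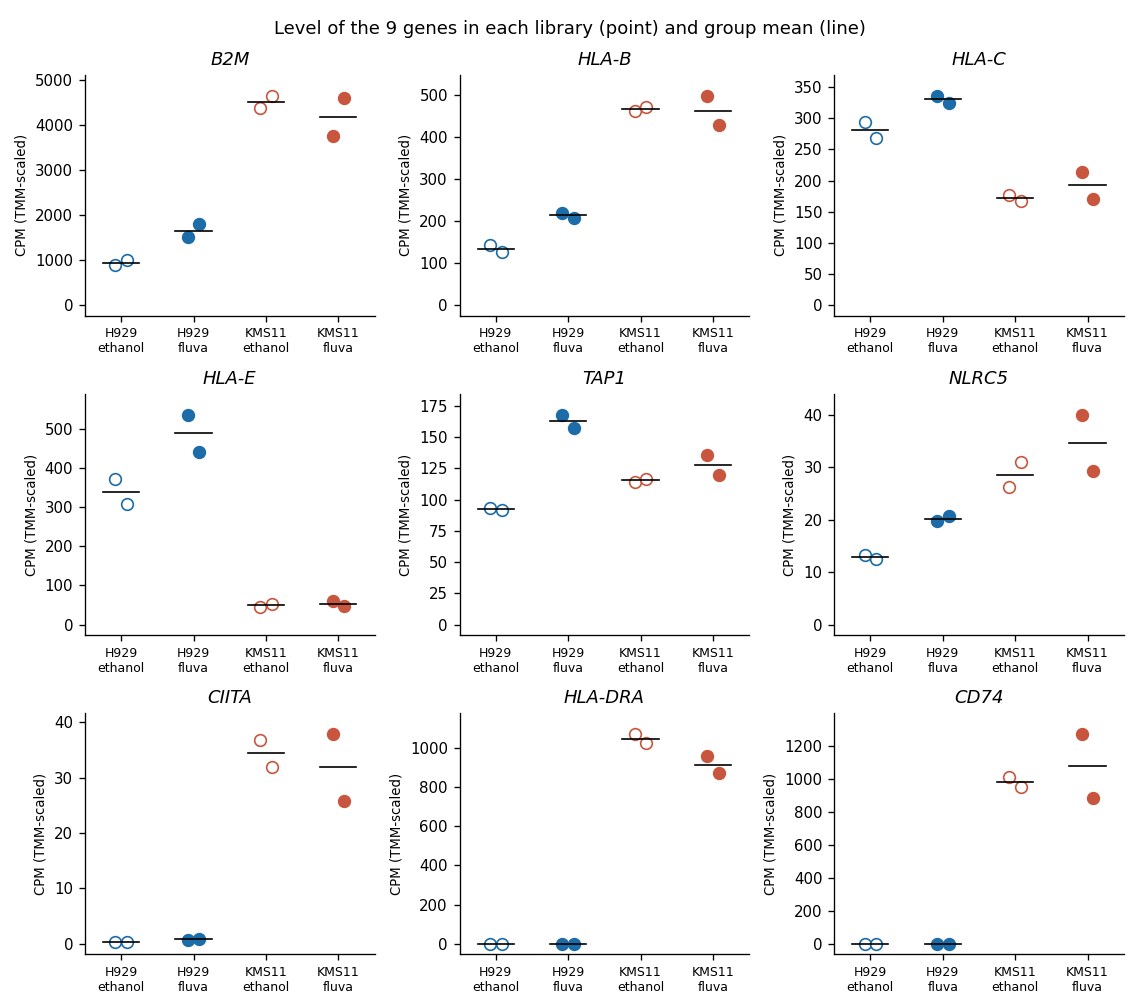
CPM (TMM-scaled, linear axes) of each of the 9 genes in every library, with open points for ethanol, filled points for fluvastatin and a line at the mean of the 2 libraries of a group; H929 is blue and KMS11 red. B2M, HLA-B and TAP1 lie higher in fluvastatin than in ethanol in H929, the KMS11 pairs lie close to each other, and CIITA, HLA-DRA and CD74 lie at the base of the axis in H929.

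B2M (ENSG00000166710.17, chr15:44711358-44718851, gene bounds here being those of GENCODE release 44 on GRCh38) was the most abundant of the 9 genes in all 4 groups, in CPM and in TPM. Its level was 890.4 and 1004 CPM in H929 in ethanol and 4384 and 4655 CPM in KMS11 in ethanol, a 4.77-fold difference (log2 2.25, SE 0.13, adjusted p = 2.8e-07). HLA-B (ENSG00000234745.10, chr6:31353872-31367067), a classical class I heavy chain, stood at 142.9 and 126.6 CPM in H929 and at 461.1 and 472.0 CPM in KMS11, 3.46-fold higher in KMS11 (log2 1.79, SE 0.11, adjusted p = 3.0e-07). In both genes the lowest KMS11 library was far above the highest H929 library. HLA-E (ENSG00000204592.8, chr6:30489509-30494194), the non-classical heavy chain recognised by the NKG2A receptor, ran the other way, at 370.3 and 306.9 CPM in H929 and 45.97 and 51.42 CPM in KMS11 (log2 −2.80, SE 0.16, adjusted p = 2.2e-07).

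HLA-C (ENSG00000204525.16, chr6:31268749-31272130), the classical heavy chain that is the main ligand of killer-cell immunoglobulin-like receptors, had 294.9 and 268.5 CPM in H929 and 176.7 and 166.7 CPM in KMS11 (log2 −0.71, SE 0.12, adjusted p = 3.2e-04). The direction of that difference depended on the scale. It was 0.21 on log2(TPM + 1) (adjusted p = 0.11) and 0.27 with the trend in GC content removed (adjusted p = 0.040), within a range of −0.77 to 0.27 and of 2.6e-08 to 0.11 in adjusted p over 16 alternatives. The effective length by which RSEM scaled HLA-C was 1266 to 1328 bases in H929 and 986 to 1239 in KMS11. That of HLA-B was 1110 to 1242 and 809 to 946 bases. B2M had nearly equal lengths, 445 to 452 and 443 to 450 bases. Its ethanol means in H929 and KMS11 were 947.2 and 4520 CPM, but 990.4 and 6731 TPM. Over all tested genes the median difference between the lines was 0.31 on log2(TPM + 1), against −0.02 in the main test. TPM and CPM thus gave different ratios between the lines beyond these HLA genes. The parts of length and of scale in the HLA-C result were not tested. Reads of the HLA genes were assigned to the reference sequence, and how well each line's own alleles match it was not tested either. The summed counts of the 6 listed class I HLA genes were 940.7 to 1087 CPM in H929 and 1088 to 1091 CPM in KMS11 (log2 0.10, SE 0.11, adjusted p = 0.43).

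TAP1 (ENSG00000168394.10, chr6:32845209-32853816) differed least, with 93.36 and 91.43 CPM in H929 and 114.4 and 116.9 CPM in KMS11 (log2 0.32, SE 0.093, adjusted p = 0.010). Without H929 ethanol replicate 2 the adjusted p was 0.052, and without KMS11 ethanol replicate 2 it was 0.057, the highest of a range that began at 1.8e-06. NLRC5 (ENSG00000140853.15, chr16:56989485-57083531) was at 13.27 and 12.44 CPM in H929 and 26.30 and 30.96 CPM in KMS11, 2.23-fold higher in KMS11 (log2 1.15, SE 0.16, adjusted p = 1.3e-04). Both genes lay higher in each KMS11 library than in either H929 library.

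The class II genes gave the widest separation. CD74 (ENSG00000019582.14, chr5:150401637-150412969), the invariant chain, had 0 counts in both H929 ethanol libraries and 38816 and 34752 counts in KMS11, at least 17810-fold higher in KMS11 when H929 is set at 3 counts over the group. HLA-DRA (ENSG00000204287.13, chr6:32439878-32445046) had 0 and 1 counts in H929 and 41030 and 37429 counts in KMS11, a ratio of depth-scaled sums of 56970 (95% interval 10220 to 2250000 from counting error). CIITA (ENSG00000179583.18, chr16:10866222-10943021) had 11 and 9 counts in H929 and 1411 and 1170 counts in KMS11, a ratio of 93.7 (95% interval 60.6 to 153.7), and 13.76% of the 75-base stretches in its transcripts also occur in another annotated gene. These intervals cover counting error only and treat reads as independent molecules.

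Most of the listed class II genes were higher in KMS11. Apart from HLA-DRA, CD74 and CIITA, 16 were tested, and 13 of them were higher and 3 lower, where 35.6% of all tested genes were higher and 36.4% lower. The HLA-D genes that were near 0 in H929 reached the test only through KMS11, and the count is a description for them too. The 9 other HLA-D genes apart from HLA-DOB had 0 to 16 counts per library in H929 in ethanol and 290 to 5877 counts in KMS11. The 3 lower genes, named after their values were seen, were HLA-DOB, which encodes a chain of the peptide-exchange modulator HLA-DO, the protease gene CTSS and the ubiquitin ligase gene MARCHF1. CTSS had means of 38.48 CPM in H929 and 25.5 CPM in KMS11, but of 10.44 and 10.66 TPM. Its difference was thus not seen on the TPM scale. MARCHF1 had 28 and 19 counts in H929 and 3 and 0 in KMS11, and its product removes class II molecules from the cell surface. Of the 5 myeloid and dendritic cell markers, genes of cells rich in class II, CD14 and CSF1R had 0 counts in all 8 libraries, and the summed level of the list was 0.10 to 0.11 CPM in KMS11 in ethanol and 0 in H929. Of the 4 B cell markers, MS4A1 had 0 counts in all 4 KMS11 libraries and PAX5 at most 3, while CR2, a complement receptor, had 1592 and 1812 counts in KMS11 in ethanol and 8 and 5 in H929.

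**Figure D2:**
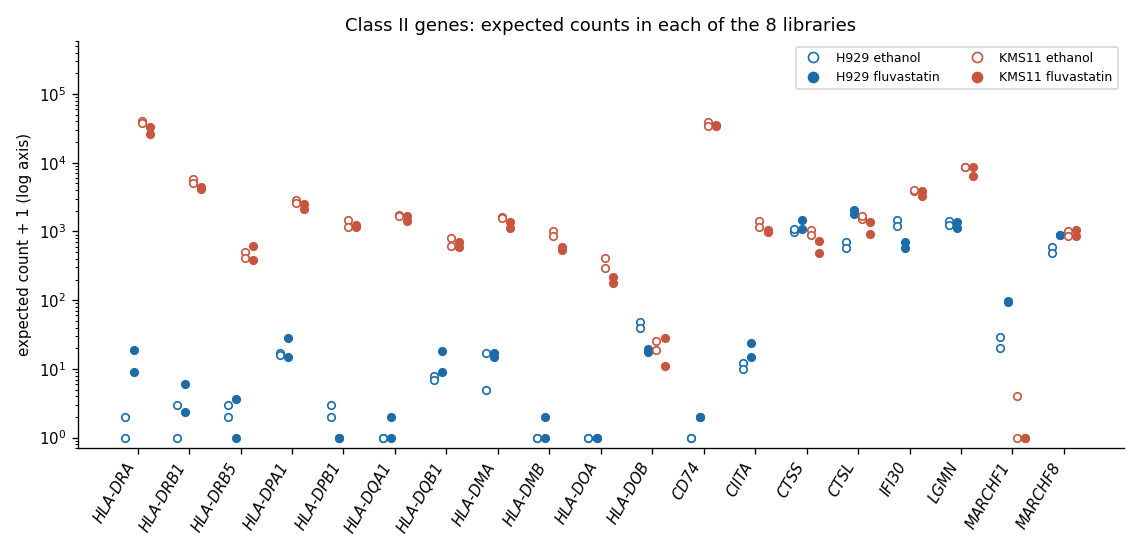
Expected counts plus 1, on a log axis, of the 19 listed class II genes in all 8 libraries, with open points for ethanol and filled points for fluvastatin, H929 in blue and KMS11 in red. HLA-DRA and CD74 lie at 26551 counts or more in every KMS11 library and at or below 18 counts in every H929 library, whereas CTSS, CTSL, LGMN and MARCHF8 are read in both lines.

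Per length, on the TPM scale, the order of the 9 genes was different in the lines. In KMS11 in ethanol, B2M had a mean of 6731 TPM, followed by HLA-DRA at 640 and CD74 at 604 TPM, which overlapped each other, then HLA-B at 374, HLA-C at 116, TAP1 at 28.5, HLA-E at 13.6, NLRC5 at 9.04 and CIITA at 7.87 TPM. In H929 in ethanol, B2M led with 990 TPM, followed by HLA-C at 99.96, HLA-E at 72.2, HLA-B at 52.6, TAP1 at 16.0, NLRC5 at 3.13 and CIITA at 0.10 TPM, with HLA-DRA at 0.01 and CD74 at 0. Apart from HLA-DRA beside CD74, no neighbours in either order overlapped between their 2 libraries. HLA-E, the third in H929, was the seventh in KMS11.

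In H929, 5 of the 6 class I genes were higher in fluvastatin than in ethanol and 0 were lower. TAP1, B2M, HLA-B, NLRC5 and HLA-E rose 1.44- to 1.76-fold, and HLA-C did not pass the test. HLA-DRA and CD74 entered the test only through KMS11, and CIITA is near the limit of detection in H929. The class II genes are therefore not counted here. Across all tested genes, 42.0% passed in H929, 22.7% higher and 19.3% lower. The median log2 fold change was 0.66 over the 6 class I genes and 0.022 over all tested genes. All 6 had both fluvastatin libraries above both ethanol libraries in CPM, which held for 37.5% of all tested genes, with 33.5% separated downward and 71.0% in either direction.

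Among the assembly partners, B2M rose from 890.4 and 1004 CPM in ethanol to 1513 and 1806 CPM in fluvastatin (log2 0.81, SE 0.13, adjusted p = 7.7e-04). TAP1, a subunit of the peptide transporter, rose from 93.36 and 91.43 CPM to 167.8 and 157.4 CPM (log2 0.82, SE 0.094, adjusted p = 1.3e-04). TAP2, the other subunit, named after its values were seen, did not pass (log2 −0.22, SE 0.11, adjusted p = 0.13). The groups of TAP1 were separated by far more than the gap between replicates, and those of B2M by more than that gap. The group means were 947.2 ± 80.3 and 1660 ± 207 CPM for B2M and 92.4 ± 1.36 and 162.6 ± 7.35 CPM for TAP1 (SD, n = 2 each). NLRC5, the class I coactivator, rose from 13.27 and 12.44 CPM to 19.76 and 20.70 CPM (log2 0.65, SE 0.17, adjusted p = 0.011), a call that was not kept without H929 ethanol replicate 2 (adjusted p = 0.059) or without H929 fluvastatin replicate 2 (adjusted p = 0.051), while its log2 fold change stayed between 0.44 and 0.87 over 17 alternatives with adjusted p of 8.1e-05 to 0.059.

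The heavy chains did not respond alike. HLA-B rose from 142.9 and 126.6 CPM to 218.7 and 208.3 CPM (log2 0.66, SE 0.10, adjusted p = 7.5e-04). HLA-E rose from 370.3 and 306.9 CPM to 534.7 and 440.6 CPM (log2 0.53, SE 0.15, adjusted p = 0.017). Its adjusted p was 0.12 without ethanol replicate 2 and 0.11 without fluvastatin replicate 1, in a range of 1.9e-05 to 0.12. HLA-C had 294.9 and 268.5 CPM in ethanol and 336.2 and 324.4 CPM in fluvastatin (log2 0.23, SE 0.12, adjusted p = 0.14), and it passed where the trend in GC content was removed (log2 0.52, adjusted p = 0.0016, in a range of 0.0016 to 0.44). With the replicate number as a block, HLA-C passed as well (log2 0.23, adjusted p = 0.049). The summed class I HLA genes went from 940.7 and 1087 CPM to 1195 and 1338 CPM (log2 0.32, SE 0.11, adjusted p = 0.045). Reads were assigned to the reference sequence of each gene, and 1.79% of the 75-base stretches in the HLA-C transcripts and 2.06% in those of HLA-E also occur in other genes, against 0% in HLA-B and B2M.

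The class II genes stayed close to the limit of detection in H929 under fluvastatin. HLA-DRA went from 0 and 1 counts to 8 and 18 counts, a ratio of 29.7 (95% interval 4.88 to 1218 from counting error). CIITA had 11 and 9 counts in ethanol and 14 and 23 in fluvastatin, a ratio of 2.11 (95% interval 1.20 to 3.84 from counting error). CIITA did not pass the edgeR test (log2 1.07, SE 0.43, adjusted p = 0.072), and it passed with the replicate number as a block (adjusted p = 0.038). On the TPM scale its libraries overlapped, with 0.11 and 0.08 against 0.07 and 0.23. CD74 had 0 and 0 counts in ethanol and 1 and 1 in fluvastatin, and no fold is given. Even in fluvastatin, the HLA-DRA counts of H929 were 26 over the group against 59911 in KMS11, a ratio of 1661 (95% interval 1134 to 2544). Of the 5 myeloid markers, ITGAX went from 0 and 0 to 12 and 16 counts and LYZ from 0 and 0 to 3 and 4, CD14 and CSF1R were at 0, and the summed level went from 0 to between 0.66 and 0.89 CPM. The T cell marker CD3E went from 120 and 110 to 196 and 246 counts, with CD3D and CD2 at 0 to 2. The part of these genes in the HLA-DRA counts was not tested. At the same time 4 of the 7 plasma cell markers fell and 0 rose in H929, where 19.3% of all tested genes were lower, among them SDC1 (log2 −1.08, SDC1 being syndecan-1, CD138). In KMS11, 1 of the 7 was lower, where 0.533% of all tested genes were.

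**Figure D3:**
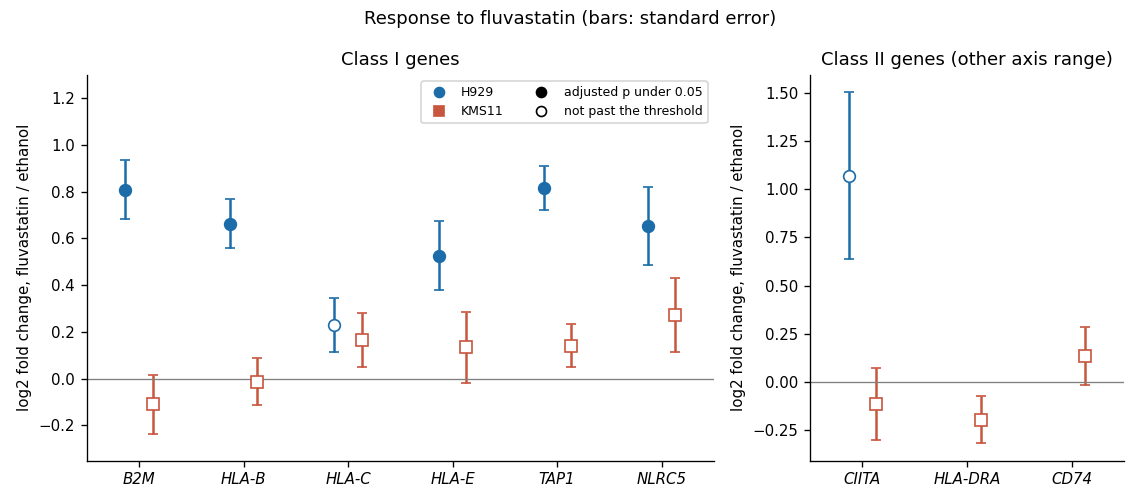
Log2 fold change from ethanol to fluvastatin with its standard error in H929 (circles) and KMS11 (squares), filled where the adjusted p is under 0.05, with class II genes on an axis range of their own; CD74 and HLA-DRA in H929 are left out because they had 3 counts or fewer over the ethanol libraries. In H929 the class I genes lie between 0.23 and 0.82, and in KMS11 between −0.11 and 0.27 with none past the threshold.

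In KMS11, 0 of the 9 genes passed the test. The same edgeR test called 3.12% of all genes in this line (2.58% higher and 0.533% lower), and among the 9 genes 0 had an unadjusted p under 0.05 and 0 passed in DESeq2. The median log2 fold change of the 9 was 0.13, beside 0.0044 over all tested genes. B2M had 4384 and 4655 CPM in ethanol and 3760 and 4616 CPM in fluvastatin (log2 −0.11, SE 0.13). HLA-B had 461.1 and 472.0 CPM and then 497.9 and 427.6 CPM (log2 −0.01, SE 0.10). In both, the fluvastatin libraries were further apart than the ethanol libraries and overlapped or flanked them. TAP1 had 114.4 and 116.9 CPM and then 135.5 and 119.8 CPM (log2 0.14, SE 0.093, adjusted p = 0.39), and NLRC5 had 26.30 and 30.96 CPM and then 40.01 and 29.31 CPM (log2 0.27, SE 0.16, adjusted p = 0.33). The higher value of HLA-B, TAP1 and NLRC5 in fluvastatin was each time that of replicate 1, the library with the lower share of protein-coding counts, and the part of that share was not tested.

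The class II genes, which are abundant in KMS11, moved little. HLA-DRA had 1071 and 1024 CPM in ethanol and 958.7 and 870.6 CPM in fluvastatin (log2 −0.20, SE 0.12, adjusted p = 0.36), the one gene of the 9 with both fluvastatin libraries below both ethanol libraries, which held for 26.5% of all tested genes. TAP1 was the one gene with both fluvastatin libraries above, as were 26.9% of all genes, and 53.4% of all genes were separated in either direction. CD74 had 1013 and 950.5 CPM and then 1272 and 883.2 CPM (log2 0.13, SE 0.15), and CIITA 36.82 and 32.00 CPM and then 37.84 and 25.86 CPM (log2 −0.11, SE 0.19). In both genes the ethanol libraries lay within the spread of the fluvastatin libraries. HLA-C had 176.7 and 166.7 CPM and then 214.6 and 170.4 CPM (log2 0.16, SE 0.12), and HLA-E 45.97 and 51.42 CPM and then 60.30 and 46.67 CPM (log2 0.13, SE 0.15). The signs of these KMS11 values were not stable to the processing, and those of HLA-B, HLA-C, HLA-E, B2M, TAP1, NLRC5, CIITA and CD74 turned under at least 1 alternative.

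The difference between the responses, KMS11 minus H929, was itself tested. It passed for 3 of the 6 class I genes, all lower in KMS11, where 23.2% of all tested genes passed and 11.5% were lower in KMS11. These were B2M (log2 −0.92, SE 0.18, adjusted p = 0.0065), TAP1 (log2 −0.67, SE 0.13, adjusted p = 0.0066) and HLA-B (log2 −0.68, SE 0.15, adjusted p = 0.010). For B2M, TAP1 and HLA-B the adjusted p stayed under 0.05 in each of 17 alternatives. The difference did not pass for HLA-E (log2 −0.39, SE 0.21, adjusted p = 0.20), NLRC5 (log2 −0.38, SE 0.23, adjusted p = 0.26), or HLA-C (log2 −0.07, SE 0.16, adjusted p = 0.82). With the trend in GC content removed these genes passed too, with an adjusted p of 5.6e-04 for HLA-E, 0.0016 for NLRC5 and 0.0021 for HLA-C. Without KMS11 fluvastatin replicate 1, NLRC5 passed (adjusted p = 0.049, range over alternatives 0.0016 to 0.55). The class II genes, which are near the limit of detection in H929, are not counted in this comparison.

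The study compared the treatments over both lines together. A term for line was added here, which its methods do not state, and 0 of the 9 genes passed the edgeR test, where 10.4% of all tested genes did (6.50% higher and 3.93% lower). Of all tested genes, 1370 passed with the line term and 4 without it. With 4 libraries per treatment, TAP1 had a log2 fold change of 0.48 (SE 0.14, adjusted p = 0.057) and NLRC5 one of 0.46 (SE 0.14, adjusted p = 0.066). The unadjusted p was under 0.05 for 4 of the 9 genes, and DESeq2 called 2, TAP1 (adjusted p = 0.025, range over alternatives 0.025 to 0.71) and NLRC5 (adjusted p = 0.031, range 0.031 to 0.9999). Without KMS11 fluvastatin replicate 2, edgeR called the same pair, with adjusted p of 0.039 for TAP1 and 0.031 for NLRC5. The other 7 genes had log2 fold changes of 0.14 to 0.35.

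The 22 listed genes of the class I pathway include the 6 described above, and the other 16 moved in both directions in H929. Of these 16, 2 were higher and 5 lower, where 22.7% of all tested genes were higher and 19.3% lower. Over the 22, 7 were higher and 5 lower, and the median log2 fold change was −0.06 over the 21 with more than 3 counts in both groups. The largest rises were those of TAP1, B2M and HLA-B. The largest falls were PSME2 (log2 −1.20, SE 0.087, adjusted p = 1.1e-05), a subunit of the proteasome activator PA28, CALR (log2 −0.74, SE 0.11, adjusted p = 6.6e-04), which encodes the endoplasmic reticulum chaperone calreticulin, and PSMB10 (log2 −0.59, SE 0.20, adjusted p = 0.038), an immunoproteasome subunit. PSME2 went from 180.8 and 189.8 CPM to 79.50 and 81.76 CPM, in the same libraries in which TAP1 rose. The count of 12 dropped to 5 when H929 ethanol replicate 2 was left out, to 7 when fluvastatin replicate 1 of that line was, and to 6 when its fluvastatin replicate 2 was. In KMS11, edgeR called 0 of the 22, with 3 at an unadjusted p under 0.05 and 1 called by DESeq2, and 3 were called without KMS11 fluvastatin replicate 2, beside 3.12% of all tested genes. The difference between the lines passed for 5 of the 22, 3 lower and 2 higher in KMS11, a share close to the 23.2% of all tested genes, and for 10 with the GC trend removed, 8 lower and 2 higher.

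Of the 19 class II genes, 5 were higher and 2 lower in H929 after fluvastatin, beside 22.7% and 19.3% of all tested genes. The count includes HLA-DRA. Without HLA-DRA, CD74 and CIITA, 16 were tested, and 4 were higher and 2 lower. The 9 other HLA-D genes apart from HLA-DOB were near the limit of detection in H929 and could hardly pass there. The counts for this list, also those for the difference between the lines, are therefore a description. The median log2 fold change was 0.78 over the 11 with more than 3 counts in both groups, beside 0.022 over all tested genes. It was the value of HLA-DMA, which was near the limit of detection, with means of 0.35 CPM in ethanol and 0.63 CPM in fluvastatin. HLA-DMA did not pass (adjusted p = 0.18). Besides HLA-DRA, the largest rises were CTSL (log2 1.77, SE 0.11, adjusted p = 4.9e-06), the lysosomal protease cathepsin L, and MARCHF8 (log2 0.90, SE 0.12, adjusted p = 3.6e-04), a membrane-bound ubiquitin ligase. CTSL went from 23.69 and 23.09 CPM to 77.74 and 81.84 CPM. The largest fall was IFI30 (log2 −0.86, SE 0.11, adjusted p = 3.0e-04), the lysosomal thiol reductase GILT that unfolds antigens. The others that passed, named once their values had been seen, were CTSS and MARCHF1, which were higher, and HLA-DOB, which was lower. The 9 other HLA-D genes stayed at 0 to 27 counts per library. In KMS11, edgeR called 0 of the 19, with 4 at an unadjusted p under 0.05, 1 in DESeq2, 2 without KMS11 fluvastatin replicate 2 and 4 with the GC trend removed, beside 3.12% of all tested genes. The difference passed for 5, HLA-DRA included, 4 lower and 1 higher in KMS11, beside 23.2% of all tested genes, and for 3 without KMS11 ethanol replicate 1.

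The factors that bind the SXY module of MHC promoters, and the known regulators of CIITA, were tested next. In H929, 3 of 14 tested genes were higher and 2 lower, with a median of 0.17, where 22.7% of all tested genes were higher and 19.3% lower. With the GC trend removed 10 passed, 7 higher and 3 lower. The higher genes were KAT2B (log2 1.25, SE 0.11, adjusted p = 3.1e-05), the acetyltransferase PCAF that works with CIITA, CREB1 (log2 0.51, SE 0.10, adjusted p = 0.0028), which binds the X2 box, and PRDM1 (log2 0.32, SE 0.088, adjusted p = 0.015), the plasma cell factor Blimp-1 that silences CIITA. The lower genes were EZH2 (log2 −0.39, SE 0.11, adjusted p = 0.020), the catalytic subunit of Polycomb complex PRC2, and NFYB (log2 −0.35, SE 0.12, adjusted p = 0.041), a subunit of NF-Y. KAT2B went from 51.90 and 53.18 CPM to 120.1 and 130.0 CPM. The count of 5 was 2 without H929 ethanol replicate 2 or either H929 fluvastatin library and 3 without either KMS11 ethanol library. In KMS11, edgeR called 0 of 14, with 1 at an unadjusted p under 0.05, 0 in DESeq2 and 3 without KMS11 fluvastatin replicate 2, beside 3.12% of all tested genes. The difference passed for 3 of 14, all lower in KMS11, where 11.5% of all tested genes were lower. It passed for 1 without H929 ethanol replicate 2 or KMS11 ethanol replicate 1, and for 7 with the GC trend removed, 5 lower and 2 higher. SPI1, a myeloid activator of CIITA, had 0 counts in all 8 libraries.

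Interferon signalling genes, which include known inducers of class I transcription, were higher in H929 in 12 of 23 tested genes and lower in 0, beside 22.7% and 19.3% of all tested genes, with a median log2 fold change of 0.44 over the 22 with more than 3 counts in both groups. The largest rises were IFIT1 (log2 1.72, SE 0.27, adjusted p = 7.5e-04), an antiviral RNA-binding protein, OAS1 (log2 1.51, SE 0.16, adjusted p = 8.8e-05), an oligoadenylate synthetase, and JAK2 (log2 1.45, SE 0.12, adjusted p = 2.1e-05), a kinase of the interferon-gamma receptor. IFIT1 was low, at 1.57 and 1.88 CPM in ethanol and 4.74 and 6.57 CPM in fluvastatin, while JAK2 went from 30.05 and 31.97 CPM to 86.13 and 83.37 CPM. The count of 12 includes GBP2, named after its values were seen, which reached the test only through the H929 fluvastatin libraries. In KMS11, 1 of 23 passed, beside 3.12% of all tested genes, and it was lower. That count was 0 without either KMS11 ethanol library, 4 without KMS11 fluvastatin replicate 2, 2 in DESeq2 and 5 with the GC trend removed. The difference between the responses passed for 8 of 23, all lower in KMS11, where 11.5% of all tested genes were lower, and for 5 without KMS11 ethanol replicate 2.

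Of 12 class I-like molecules and ligands of the NKG2D receptor, 6 had enough counts to be tested and 2 were higher in H929, with 0 lower, beside 22.7% and 19.3% of all tested genes. MR1, which presents vitamin B metabolites to MAIT cells, rose from 25.39 and 25.09 CPM to 49.63 and 49.86 CPM (log2 0.98, SE 0.10, adjusted p = 7.0e-05). Its KMS11 libraries had 31.68 and 30.52 CPM in ethanol and 29.39 and 28.73 CPM in fluvastatin, and the difference between the lines passed (log2 −1.08, adjusted p = 0.0011). The other gene counted, ULBP1, named after its values were seen, was near the limit of detection. Its H929 means were 0.27 CPM in ethanol and 0.89 CPM in fluvastatin. The count of 2 was 1 in DESeq2, in limma and with the stricter filter of 50 counts. It was also 1 without H929 ethanol replicate 2 or either H929 fluvastatin library. In KMS11, edgeR called 0 of the 6, with 1 at an unadjusted p under 0.05 and 0 in DESeq2.

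**Figure D4:**
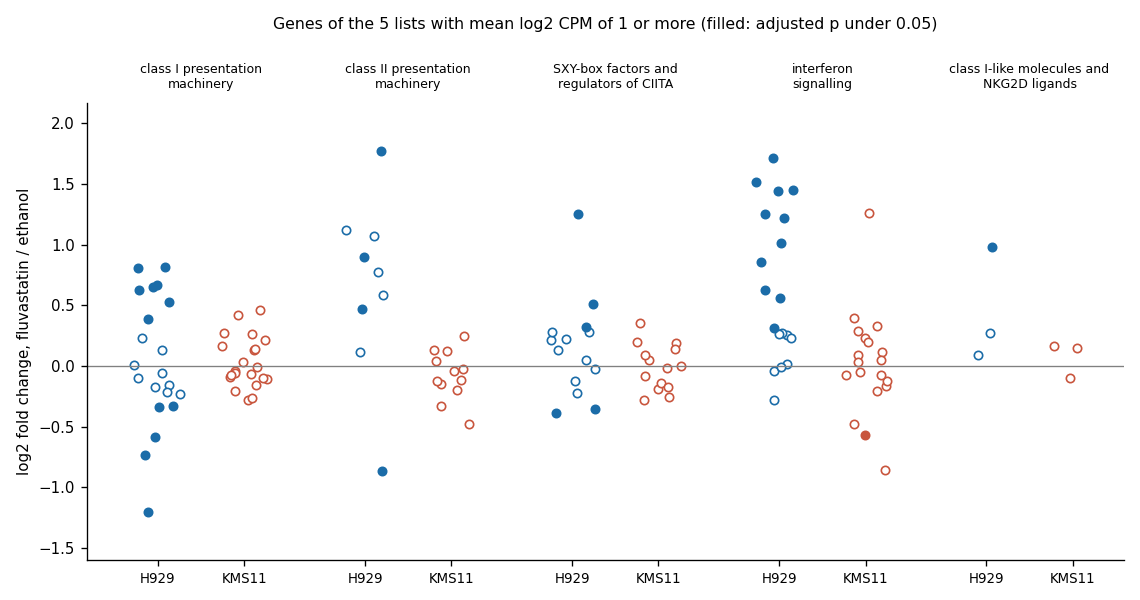
Log2 fold change from ethanol to fluvastatin of the genes of 5 lists in H929 (blue) and KMS11 (red), leaving out genes below a mean log2 CPM of 1 or with 3 counts or fewer in either group, filled where the adjusted p is under 0.05. In H929 the filled class I points lie on both sides of 0 and the filled interferon points above 0 only, and in KMS11 1 point is filled, below 0.

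With each line's mean subtracted, the 6 class I genes varied together to different degrees over the 8 libraries. TAP1 and HLA-B had a Pearson r of 0.97, and B2M and HLA-C the lowest, at 0.29. The points are 4 libraries of each line, and both the treatment and the depth of a library are shared by all genes. Among all tested genes, those closest to B2M were ZFAND6 (r = 0.997) and VPS33A (r = 0.996), those closest to HLA-B were TG (r = 0.998) and PTP4A3 (r = 0.993), and those closest to TAP1 were ATP9B and DNER (r = 0.997 each). Those closest to HLA-C were ZZEF1 and TNKS1BP1, to HLA-E TMEM150A and PAOX, to NLRC5 SOX6 and PLSCR3, to CIITA PLAGL1 and KAT6A, to HLA-DRA RORB and ZNF662, and to CD74 BCL3 and NIBAN2, with r between 0.980 and 0.998, and those of the class II genes rest on a few counts in H929. With 8 libraries and 13129 genes searched, values this high are the top of a long list, and no p is given.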

How the data were processed

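RNA from H929 and KMS11 cells was sequenced as stranded, ribosomal RNA-depleted paired-end libraries. Per the labels and the study's methods, the authors aligned reads to GRCh38 with STAR 2.5.2b and estimated gene values with RSEM 1.3.0. The deposited expected counts are not normalized, and the deposited TPM values are scaled by RSEM's effective length; the FPKM column was not used. Each file lists 58219 genes, and the authors limited their own test to protein-coding genes.

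GENCODE release 44, newer than the annotation of the files, gave names and positions and includes 57392 of the identifiers. Expected counts were rounded and, for protein-coding genes, filtered with filterByExpr (minimum count 10, minimum total 15), scaled by TMM and tested in R 4.3.3 with edgeR 4.0.16 by its quasi-likelihood F test, with p values adjusted by Benjamini-Hochberg across 13129 genes and a threshold of 0.05. Contrasts of 4 group means gave each line's response, their difference and the comparison of the lines in ethanol, and a fit with terms for line and treatment gave the response over both lines. All adjusted p values are from edgeR unless another tool is named. Standard errors were derived from each log2 fold change and its F statistic. The fit of group means had a common dispersion of 0.0125. The same code was run on simulated counts in which far fewer genes were changed than passed in H929. A response as broad as that of H929 was therefore not covered. With 2 replicates per group, p values rest on a spread estimated across genes. CPM are counts scaled to the TMM-adjusted library size.

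Alternatives were DESeq2 1.42.0, limma 3.58.1 on log2(TPM + 1), other scalings and filters, all annotated genes, removal of the trend in GC content per library, the replicate number as a block, the summed class I HLA counts and leaving out each library. The 9 genes, the lists and the tests were chosen with earlier results of these data known. The genes named from each list are up to 3 with the largest rises and 3 with the largest falls past the threshold at a mean log2 CPM of at least 1 in each line's response, and for each of the 9 genes the 2 genes with the highest Pearson correlation. Promoters came from RefSeq (GRCh38.p14), where 5 of the 9 symbols matched an entry. Some genes of the lists are counted but not reported by name here.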

Additional observations from a re-analysis of the deposited data

Results flagged for a closer look

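In all, 4 of the 9 genes were singled out because their response in KMS11 minus that in H929 passed its own test, as did 23.2% of all tested genes. For B2M the difference was −0.92 on the log2 scale, with both H929 fluvastatin libraries above both ethanol libraries and the KMS11 groups overlapping. For HLA-B it was −0.68 and for TAP1 −0.67, and for TAP1 the fluvastatin libraries lay above the ethanol libraries in KMS11 too. For HLA-DRA it was −4.80, a fitted value that depends on the prior count because H929 had 1 count over its ethanol libraries and the gene was tested only through KMS11, and it ranged from −7.29 to −0.62 over 17 alternatives.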

How the results depend on the processing

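HLA-DRA, CD74 and CIITA are counted here, although HLA-DRA and CD74 were tested only through KMS11. Of all tested genes in the main fits, 42.0% passed in H929, 3.12% in KMS11 and 23.2% for the difference. The share was 10.4% over both lines and 72.0% between the lines in ethanol. The number of the 9 genes that passed was 6 in H929 and ranged from 4 to 7 when single libraries were left out, was 0 in KMS11 under every alternative run, was 4 for the difference (4 to 6), 0 over both lines (0 to 2) and 9 between the lines in ethanol (8 to 9). It moved by more than 1.5 times for the difference with the GC trend removed, where 8 passed, and over both lines, where 1 passed without a filter on low counts and 2 in DESeq2. Of 765 values of single genes under single alternatives, 26 changed sign, 0 of them in the H929 response.

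The sign changes in KMS11 were those of values that had not passed. With the GC trend removed they were −0.28 for HLA-C, −0.035 for HLA-E, −0.088 for TAP1, −0.0023 for NLRC5 and −0.073 for CD74. On log2(TPM + 1) they were −0.15 for HLA-C, −0.0064 for TAP1 and −0.045 for CD74, and library size scaling gave 0.011 for HLA-B. When single libraries were left out, the KMS11 values spanned −0.13 to 0.049 for HLA-B, −0.019 to 0.28 for HLA-C, −0.068 to 0.26 for HLA-E, −0.31 to 0.024 for B2M, −0.42 to 0.092 for CIITA and −0.16 to 0.33 for CD74, the ends being without KMS11 fluvastatin replicate 1 or 2, and the difference for HLA-C spanned −0.22 to 0.083. Over both lines, CD74 was −0.048 with the GC trend removed, −0.0082 on log2(TPM + 1) and −0.12 to 0.37 without single libraries. CIITA was −0.092 with no cell line term and −0.17 on log2(TPM + 1). HLA-DRA was −0.19 with no cell line term, −0.029 on log2(TPM + 1) and −0.056 to 0.34 without single libraries, the lower end being without H929 fluvastatin replicate 2. Between the lines, HLA-C was 0.27 with the GC trend removed and 0.21 on log2(TPM + 1). The cause was not tested.

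Replicate numbers are shared by the groups, and the labels do not say whether they pair the samples. The deviations of same-numbered libraries correlated at 0.77 in H929 and −0.08 in KMS11 (5561 genes). Same-numbered libraries thus deviated alike in H929 and not in KMS11. The main test left the replicate number out in both lines, and the block was run as an alternative. With the replicate block 8 of the 9 genes passed in H929, 0 in KMS11, 5 for the difference and 0 over both lines. HLA-C (adjusted p = 0.049) and CIITA (adjusted p = 0.038) were the genes added in H929, in ranges of 0.0016 to 0.44 and 0.031 to 0.76. The difference passed for 5 of the 14 SXY-box factors and regulators of CIITA with the block, against 3. No block could be set between the lines. Over all 13129 tested genes the block called 6426 in H929 against 5511 and 1637 in KMS11 against 409. It called 4227 for the difference against 3048, and 158 over both lines against 1370.

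The count over all genes in KMS11 was also 1098 with no filter, 1558 with the GC trend removed, 926 in DESeq2, 223 in limma, 63 without ethanol replicate 1, 72 without ethanol replicate 2 and 2148 without fluvastatin replicate 2. Over both lines it was 3017 with the GC trend removed, 2556 in DESeq2, 4 with no cell line term and 191 to 1697 without single libraries. For the difference it was 1309 to 4269 without single libraries. On log2(TPM + 1) the median of all genes between the lines was 0.31, against −0.02, and 6644 genes were higher and 2477 lower in KMS11. In H929, TAP1, B2M and HLA-B passed under all 17 alternatives.

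Depth limits the class II genes in H929, where 3 counts over a group of 2 libraries is the floor used.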

Other observations

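Among genes of the lists outside the rule for named genes, chosen after their values were seen, IRF8, an interferon regulatory factor of B cells and myeloid cells, had 0 or 1 counts in each H929 library and 532 to 845 counts in each KMS11 library. IFNGR2, a chain of the interferon-gamma receptor, had 5.96 and 6.32 CPM in H929 and 59.39 and 58.20 CPM in KMS11 in ethanol (log2 3.26, adjusted p = 1.5e-08 in edgeR). In ethanol, OAS1 had 536 and 351 counts in H929 and 38 and 35 in KMS11, and MX1 81.89 and 69.46 CPM against 5.09 and 4.35 CPM. Of the 23 interferon signalling genes, 6 were higher and 11 lower in KMS11 than in H929 in ethanol, where 35.6% of all tested genes were higher and 36.4% lower. GBP2, an interferon-inducible GTPase, had 7 and 5 counts in H929 in ethanol and 41 and 77 in fluvastatin. It reached the test only through the H929 fluvastatin libraries, so no p is given.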
